A study of Mus musculus with 2 samples.

Results

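Amino acid transporters of the solute carrier superfamily were described in nuclear RNA of macrophages. The set was chosen by gene symbol: the families Slc1a, Slc3a, Slc6a, Slc7a, Slc36a, Slc38a and Slc43a, without Slc7a2 and Slc7a11, restricted to genes with a protein-coding transcript. Of 67 symbols that fitted the pattern before the exclusions, 62 genes were kept, out of 55536 annotated genes, of which 22028 are protein-coding. One of the 62, Slc7a6os, carries the symbol of the transporter next to it but encodes a factor for nuclear import of RNA polymerase II, so that 61 of the genes are transporters or their partners. No expression value entered the rule, but the set was chosen with earlier results of these data known.

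The cells were bone marrow-derived macrophages of the mouse strain C57BL/6J, which are grown in culture from marrow precursors. They had been given 100 ng/ml Lipid A, the membrane anchor of endotoxin and a ligand of Toll-like receptor 4, over 12 h and then a washout of 12 h, and they were collected at 0 min of a renewed exposure. RNA of the nucleoplasm, depleted of ribosomal RNA, was sequenced in 2 libraries, biological replicates 1 and 2 of this 1 group, started from 1 µg and 500 ng of RNA. No untreated cells, later time point or cytoplasmic RNA was analysed here, so the values are levels after this pretreatment, no test between conditions was possible, and the starting amount and the replicate cannot be told apart. SDs are over these n = 2 libraries and measure only the spread between them.

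Slc7a light chains reach the plasma membrane as dimers with a heavy chain of the Slc3a family and exchange one amino acid for another, whereas the cationic carriers of Slc7a work alone. Slc1a members carry glutamate or exchange small neutral amino acids, Slc6a members take up neurotransmitters, osmolytes and amino acids with sodium, Slc38a members carry glutamine and other neutral amino acids, Slc43a members let large neutral amino acids pass without exchange, and Slc36a members move small amino acids with protons. In macrophages, these carriers are known for setting the supply of arginine and glutamine, and several that sit in the lysosome are known for reporting amino acids to the growth kinase mTORC1.

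The gene-level tables held 22907877 expected counts in replicate 1 and 18612405 in replicate 2. TPM, a level per gene length that is scaled to the same total in each library, is used for levels, and Rn7sk, a small nuclear RNA, took 27.9% and 29.8% of it. All 10 macrophage markers stood at 10 TPM or more, from Cd14 at 37.9 and 36.6 to Lyz2 at 1368 and 1126. Of 36 markers of other cell types, 0 reached a TPM of 1 in both libraries and 13 had no count, and their summed level was 3.14 and 4.46 TPM, against 4679 and 3546 TPM for the macrophage markers. Kit, a mast cell marker, had 0.48 and 1.13 TPM from 63 and 74 counts. Ltf, a neutrophil marker, had 0.57 and 1.32 TPM from 7 and 7 counts, so both passed TPM 1 in replicate 2 alone. Itga2b, a megakaryocyte marker, had 0.56 and 0.57 TPM from 24 and 17 counts. In a second deposited quantification of the same reads, Cd3d (1.76 and 4.20 TPM) and Lepr (2.06 and 4.36 TPM) passed TPM 1 in both. Among the neuronal markers, Rbfox3, Syt1 and Snap25 had no count, and Tubb3 had 1 and 0. Among the epithelial markers, Epcam and Lrp2 had none, Cdh1 had 2 and 7 counts and Vil1 had 5 and 5. The second quantification gave Lrp2 0.885 and 0.866 TPM. In such bulk RNA, fewer cells of a type and less RNA per cell cannot be told apart.

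A minority of the set made up nearly all of its summed level. Of the 62 members, 22 reached TPM 1 in both libraries and count as expressed here, which is 35.5% of them beside 44.4% of all protein-coding genes. TPM 10 was reached in both by 14 members, or 22.6%, beside 19.7% of protein-coding genes. The median member stood at -2.65 ± 0.13 (SD, n = 2) on the log2(TPM + 0.1) scale, and the median protein-coding gene at -0.91 ± 0.05. Summed over members, the level was 923 TPM in replicate 1 and 860.0 TPM in replicate 2, or 0.336% and 0.291% of the TPM of protein-coding genes. Slc6a6 alone held 28.9% and 28.1% of that sum, and Slc6a6, Slc43a2, Slc3a2 and Slc38a6 together held 67.6% and 64.9%. The 40 members under TPM 1 in the lower library held 0.318% and 0.543%. The same concentration was not taken over all protein-coding genes, so it cannot be read as a trait of the set.

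The families differed in how many of their members were seen. In Slc38a, 6 of 11 members reached TPM 10 in both libraries. The same level was reached by 2 of 21 in Slc6a, 2 of 9 light chains, 1 of 2 heavy chains, 1 of 4 in Slc36a and 1 of 3 in Slc43a, and by 0 of 7 in Slc1a and 0 of 4 cationic carriers. Slc6a, the largest family, held the highest single level and had no count for 9 of its 21 members. No count was found for 4 of 9 light chains, 4 of 11 in Slc38a, 2 of 7 in Slc1a and 1 of 3 in Slc43a. It was 0 of 2 heavy chains, 0 of 4 cationic carriers and 0 of 4 in Slc36a. Of all protein-coding genes, 7316 of 22028 had no count.

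**Figure D1:**
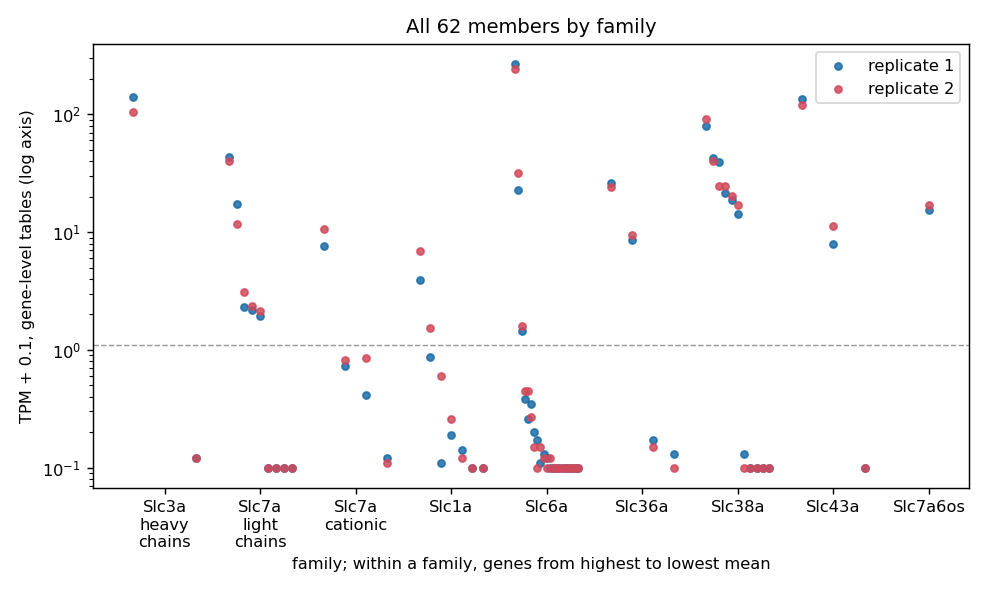
TPM + 0.1 of each of the 62 members on a log axis, by family, with replicate 1 in blue and replicate 2 in red; the dashed line marks a TPM of 1, and points at 0.1 are genes at a TPM of 0. The 22 members above the line in both libraries spread over every family, and the highest point is Slc6a6 at 267 and 242 TPM.

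Some members that lie close together on a chromosome had very different levels. For 2 such pairs the 250 bases before the start sites are shown, chosen after the values were seen because the pairs differ in opposite ways. Slc36a1, the lysosomal proton-coupled carrier, was at 26.0 and 24.0 TPM, and Slc36a3, on the same chromosome, at 0.07 and 0.05 TPM. Slc6a20b was at 1.36 and 1.48 TPM, and its paralog Slc6a20a, a carrier of proline-like amino acids whose end lies 2.205 kb from the start of Slc6a20b, at 0.03 and 0.02 TPM. The sequences are from RefSeq, build GRCm38.p6, read 5′ to 3′ on the gene's strand, with CpG dinucleotides in capitals. The windows are chr11:55204090-55204339 (plus strand) for Slc36a1, chr11:55151709-55151958 (minus strand) for Slc36a3, chr9:123632539-123632788 (minus strand) for Slc6a20b and chr9:123678833-123679082 (minus strand) for Slc6a20a.
Slc36a1: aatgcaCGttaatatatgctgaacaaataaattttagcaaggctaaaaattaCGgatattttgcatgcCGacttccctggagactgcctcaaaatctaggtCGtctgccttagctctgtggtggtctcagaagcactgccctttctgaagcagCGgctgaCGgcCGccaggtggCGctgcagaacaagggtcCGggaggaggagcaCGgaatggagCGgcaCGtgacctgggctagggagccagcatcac
Slc36a3: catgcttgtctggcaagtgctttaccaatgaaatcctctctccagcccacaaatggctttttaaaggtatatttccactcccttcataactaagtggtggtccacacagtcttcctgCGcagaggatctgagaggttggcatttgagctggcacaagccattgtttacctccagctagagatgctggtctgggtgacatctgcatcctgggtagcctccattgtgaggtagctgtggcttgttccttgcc
Slc6a20b: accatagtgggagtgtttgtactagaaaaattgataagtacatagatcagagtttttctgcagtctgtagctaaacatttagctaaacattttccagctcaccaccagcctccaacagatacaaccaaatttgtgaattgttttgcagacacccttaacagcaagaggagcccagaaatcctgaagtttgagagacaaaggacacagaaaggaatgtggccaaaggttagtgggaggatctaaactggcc
Slc6a20a: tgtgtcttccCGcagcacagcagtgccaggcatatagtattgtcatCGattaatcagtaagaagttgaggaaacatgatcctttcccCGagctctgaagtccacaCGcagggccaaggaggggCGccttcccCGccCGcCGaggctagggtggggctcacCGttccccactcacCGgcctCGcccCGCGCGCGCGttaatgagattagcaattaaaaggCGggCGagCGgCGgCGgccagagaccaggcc

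The window of the expressed Slc36a1 held 12 CpG and that of Slc36a3 held 1. In the other pair the order was turned round, with 0 CpG before the expressed Slc6a20b and 21 before Slc6a20a. This contrast is limited, since the level of Slc6a20b is near TPM 1 and uncertain. The second quantification gave it 0.987 and 1.36 TPM. RefSeq windows were found for 45 members, in 66 windows. Over the 24 windows of 16 expressed genes the median was 12.5 CpG, and over the 42 windows of 29 other genes it was 6. For all protein-coding genes the medians were 16 and 4. The members under TPM 1 thus included windows rich in CpG, with up to 27 (Slc1a1, the neuronal glutamate carrier, at 0.04 and 0.02 TPM).

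Motifs of amino acid stress, lysosome and macrophage factors were searched on both strands of these windows. The core of the amino acid response element, TGATGNAA, which the stress factor Atf4 is known to bind, was found in 2 of 24 windows of expressed members and 1 of 42 windows of the others, beside 2.95% of all protein-coding windows. Both matches among expressed members lay in alternative windows of Slc7a7, which can share bases. The E-box CACGTG, which the lysosomal gene regulators Tfeb and Tfe3 are known to bind, was in 2 of 24 and 7 of 42, beside 6.78%, and 1 of the matches is the one before Slc36a1 printed above. The core GAGGAAGT of the macrophage factor PU.1 was in 0 and 0, beside 2.28%, and the AP-1 letters TGANTCA in 3 and 6, beside 6.13%. A window can hold several of these motifs. Such matches describe the letters of the windows and are not sites.

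The heavy chain Slc3a2, partner of the plasma membrane light chains, was the third highest member. It lies on chromosome 19 from 8706882 to 8723369 on the minus strand and had 142 TPM (6130 counts) in replicate 1 and 105 TPM (3779 counts) in replicate 2. The second quantification gave 75.5 and 94.2 TPM. The other heavy chain, Slc3a1, the renal and intestinal partner of Slc7a9, stood at 0.02 TPM in both libraries, from about 1 read each. The 9 light chains summed to 66.9 and 58.8 TPM, so that Slc3a2 was 2.12 and 1.79 times their sum, and 1.75 and 1.93 times in the second quantification. The sum is over the light chains of the set, without Slc7a11, which also pairs with Slc3a2, and with Slc7a9, so it is not the sum of the partners of Slc3a2.

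Among light chains, Slc7a8, an exchanger of large neutral amino acids, was highest. It had 43.4 and 39.9 TPM (4535 and 3608 counts; 17.2 and 22.3 TPM in the second quantification). Slc7a7, which exports arginine in exchange for neutral amino acids and whose loss in people causes lysinuric protein intolerance with macrophage disease, had 17.3 and 11.6 TPM from 728 and 468 counts. It is 1 of 2 expressed members with a higher TPM in the second quantification in both libraries, 19.7 and 17.6. The 3 other light chains seen were lower. Slc7a5, the main leucine exchanger of activated lymphocytes, had 2.20 and 3.0 TPM, Slc7a6, a close relative of Slc7a7, had 2.09 and 2.24 TPM, and Slc7a15 had 1.85 and 2.03 TPM. Slc7a8 exceeded Slc7a5 in both libraries without overlap of their ranges. The light chains Slc7a9, Slc7a10, Slc7a12 and Slc7a13, known mainly from kidney and brain, had no counts.

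Of the 4 cationic carriers, Slc7a1, a widespread arginine and lysine carrier, was the 1 seen, at 7.46 and 10.5 TPM. Slc7a4 and Slc7a3 stayed under TPM 1 in both libraries, and Slc7a14 stood at 0.02 and 0.01 TPM. For Slc7a14 the second quantification gave 184 and 191 estimated counts (0.251 and 0.324 TPM), against 6 and 2 expected counts. Slc7a2, the inducible arginine carrier of activated macrophages, is not among the members.

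In Slc1a, the glutamine exchanger Slc1a5 led with 3.81 and 6.84 TPM from 257 and 369 counts. Slc1a4, an exchanger of alanine, serine and cysteine, was the member just below TPM 1, with 0.77 TPM in replicate 1 and 1.42 in replicate 2. The glutamate carriers of the family reached at most 0.50 TPM in the gene-level tables. Slc1a3, the astrocyte glutamate carrier, was named after its values were seen. It was the 1 member that passed TPM 1 in both libraries of the second quantification alone. It had 5 and 2 expected counts (0.09 and 0.16 TPM) but 114 and 134 estimated counts (1.34 and 2.10 TPM) in the second quantification. The methods parted for other low members too, among them Slc7a14 and Slc38a11.

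Slc6a6, the taurine carrier, had the highest level of all members. It lies on chromosome 6 from 91684053 to 91759066 on the plus strand, ranked 92 among protein-coding genes, and had 267 and 242 TPM, which rested on 30670 and 27434 counts. It was first in both libraries of the second quantification too, with 154 and 168 TPM. Slc6a8, the creatine carrier, followed in the family at 22.9 and 31.5 TPM (1726 and 2010 counts; 9.44 and 17.9 TPM in the second quantification). The third was Slc6a20b at 1.36 and 1.48 TPM, the member just above TPM 1. All carriers of dopamine, noradrenaline and serotonin (Slc6a3, Slc6a2 and Slc6a4) were at most 0.05 TPM, and Slc6a2, Slc6a3, Slc6a5, Slc6a7, Slc6a11, Slc6a14, Slc6a15, Slc6a16 and Slc6a18 had no count.

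Slc36a1 carries small amino acids out of the lysosome with protons. Its level of 26.0 and 24.0 TPM rested on 3549 and 2721 counts, with 14.03 and 16.8 TPM in the second quantification. Slc36a4, a carrier of proline and tryptophan, had 8.53 and 9.44 TPM. Slc36a2 and Slc36a3 had at most 3 counts in a library.

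Slc38a held the most members past TPM 10. Slc38a6, which has been studied less than its relatives, lies on chromosome 12 from 73286779 to 73354049 on the plus strand and led with 79.4 and 90.6 TPM from 5341 and 4861 counts. Slc38a9, the lysosomal arginine sensor that signals to mTORC1, followed at 42.9 and 40.1 TPM (3253 and 2714 counts; 19.0 and 24.3 TPM in the second quantification). Slc38a10 had 39.2 and 24.5 TPM from 2659 and 1459 counts, with 23.5 and 21.1 TPM in the second quantification. These 3 stood above the better known glutamine carriers of the plasma membrane in both libraries.

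Slc38a7, which exports glutamine and asparagine from the lysosome, had 21.3 and 24.4 TPM (1409 and 1419 counts; 9.74 and 15.4 TPM in the second quantification). Slc38a1 had 18.7 and 20.3 TPM from 2935 and 2708 counts (8.80 and 12.3 TPM in the second quantification). Slc38a2, whose RNA is known to rise when amino acids are scarce, had 14.2 and 17.0 TPM from 2016 and 2020 counts (6.13 and 9.48 TPM). Slc38a1 and Slc38a2 are the sodium-coupled uptake carriers for glutamine and alanine, and they lie 44.479 kb apart with no protein-coding gene between them. Slc38a3, Slc38a4, Slc38a5 and Slc38a8, known from liver, brain and eye, had no count, and Slc38a11 had 1 count in all. For Slc38a11 the second quantification gave 87 and 141 estimated counts (0.483 and 0.958 TPM).

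Slc43a2, a uniporter of branched-chain and aromatic amino acids, was the second highest member by mean. It lies on chromosome 11 from 75531694 to 75577575 on the plus strand and had 136 and 121 TPM from 18668 and 16116 counts, with 85.2 and 87.0 TPM in the second quantification. Slc43a3, which is known as a carrier of purine bases despite its family, had 7.79 and 11.2 TPM. Slc43a1, the other uniporter of the family, had no count. Slc7a6os had 15.4 and 16.9 TPM (573 and 543 counts; 7.39 and 10.5 TPM in the second quantification), above its neighbour Slc7a6 in both libraries.

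Placed in order of their mean level, the 22 expressed members form 21 pairs of neighbours. In 10 of these pairs the 2 libraries' ranges overlapped, and in 11 they did not. Slc6a6 stood clear of Slc43a2, while Slc43a2 and Slc3a2 overlapped. Slc38a6 was clear of its neighbours on both sides. Slc7a8 overlapped Slc38a9, and from Slc38a10 down to Slc38a7 each member overlapped the next. With 2 libraries, an order without overlap describes these libraries and is no test.

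The second quantification, made from the reads without the alignments, gave lower TPM for most members. Its value over the gene-level value had a median of 0.541 and 0.710 over expressed members, beside 0.558 and 0.751 over expressed protein-coding genes. Of the 22 expressed members, 19 were lower in both libraries. In both methods 21 members reached TPM 1 in both libraries; Slc6a20b did so in the gene-level tables alone and Slc1a3 in the second quantification alone.

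**Figure D2:**
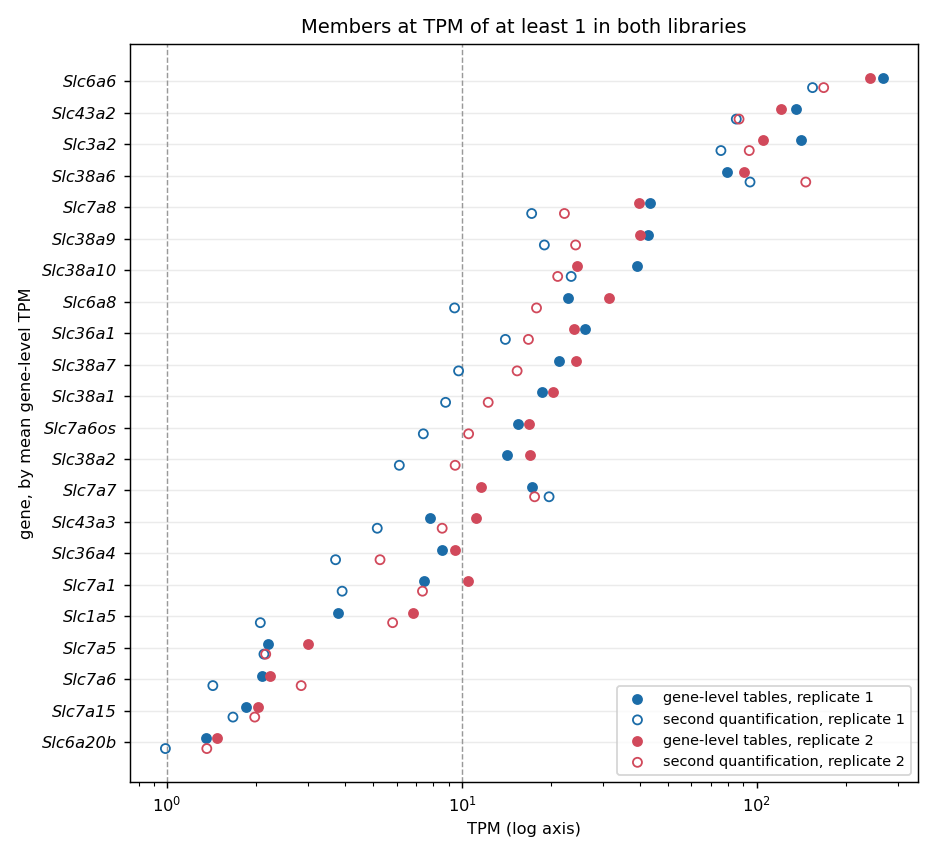
TPM of the 22 expressed members on a log axis, with filled points for the gene-level tables, open points for the second quantification, blue for replicate 1 and red for replicate 2; dashed lines mark TPM 1 and 10. Open points lie left of filled ones for most genes, but right of them for Slc38a6 (94.8 and 146 against 79.4 and 90.6 TPM) and Slc7a7.

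Slc38a6 was the other member that the second quantification raised in both libraries, to 94.8 and 146 TPM. The rise was largest in 1 annotated transcript, Slc38a6-208, which had 2201 and 1995 counts in the transcript tables and 14246 and 17424 estimated counts in the second quantification. Its TPM was 20.5 and 21.9 in the former and 45.7 and 69.2 in the latter. Of its stretches of 31 bases, 78.0% also occur in transcripts of other genes, 124 of them, and Noct alone holds 62.7% of all its stretches. By contrast the leading coding transcript Slc38a6-206, with 5.13% shared, had 33.2 and 34.7 TPM in the transcript tables and 14.1 and 20.6 TPM in the second quantification, the same direction as most members. How far shared sequence sets the level of Slc38a6 was not tested, and its place in the order is uncertain. Slc6a20b is uncertain likewise, since 43.4% of all stretches of Slc6a20b-201 occur in other genes. Sacm1l, which overlaps it on the other strand, holds 28.2% of all its stretches, and the paralog Slc6a20a holds 12.8%.

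Overlapping genes touch 8 of the 22 expressed members, and the use of strand in counting is not given in the sources used here. Overlapping Slc6a6 are Gm45828 on the same strand (1008 and 538 counts), and Gm44981 (1293 and 633 counts) and 4930517G19Rik (704 and 386 counts) on the other, each small beside the 30670 and 27434 counts of the member. Opposite Slc43a2 lies Gm45606, with 1742 and 885 counts. For Slc7a5 the overlapping gene had more counts, Gm20388 with 1059 and 1132 against 196 and 243, but 0% of the stretches of 31 bases of the Slc7a5 transcripts occur in other genes. For Slc6a20b the gene with more counts was Sacm1l, with 956 and 972 against 216 and 199.8. Slc7a7 overlaps Oxa1l on the other strand, and 9.61% of the stretches of Slc7a7-201 occur there. Reads from sequence shared with such partners cannot be told apart without strand, so the level of Slc6a20b is uncertain.

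Unseen members were limited by depth as follows. A total of 20 of the 62 members had no count at all, beside 7316 of 22028 protein-coding genes. That share is close to that of the members, so having no count cannot be read as a trait of the set. A floor of 3 counts corresponds to 0.0176 to 0.147 TPM for these genes, and it covers counting error only. In the second quantification 12 of the 20 had an estimated count and 8 had none; the highest was Slc7a13 at 0.860 and 1.98 TPM, and 0 of the 20 reached TPM 1 in both libraries. A further 20 members had counts but fell under TPM 1 in a library, 18 of them with at most 20 counts in each. Apart from the members named with their families, the genes without a count were Slc1a6 and Slc1a7.

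Each member was also paired with the next member along its chromosome, and 14 such adjacent pairs, with 25 members, lay within 500 kb. In 3 pairs both were expressed, namely Slc7a7 with Slc7a8, Slc38a1 with Slc38a2, and Slc7a6 with Slc7a6os. In 7 pairs neither was, among them Slc6a13 with Slc6a12 and Slc6a18 with Slc6a19. In 4 adjacent pairs 1 gene was and the other was not. These were Slc36a1 beside Slc36a2 (26.0 and 24.0 TPM against 0.03 and 0), Slc38a2 beside Slc38a4, Slc43a3 beside Slc43a1 and Slc6a20b beside Slc6a20a. Slc38a2 thus had an expressed neighbour on one side, Slc38a1, and one without counts at 295 kb on the other.

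**Figure D3:**
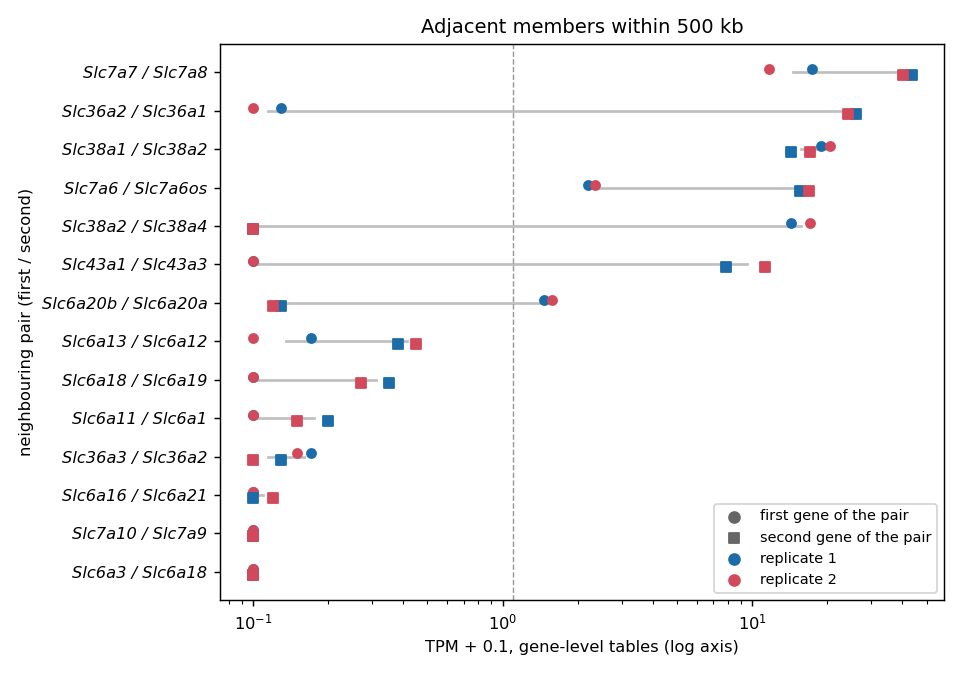
TPM + 0.1 on a log axis for the 14 pairs of members that are adjacent among the members along a chromosome and within 500 kb, with circles for the first gene, squares for the second, blue for replicate 1 and red for replicate 2; lines join the means and the dashed line marks a TPM of 1. In 3 pairs both genes lie right of the line, in 7 neither does, and in 4 the line runs between them.

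Nuclear RNA holds transcripts that keep introns. The annotation lists retained-intron transcripts for 16 of the 22 expressed members, beside 6143 of 9791 expressed protein-coding genes. Their median share of the gene's transcript TPM was 26.1% ± 1.32 (SD, n = 2), beside 30.0% ± 1.02 over 6143 expressed protein-coding genes with such a transcript. The share depends on the measure: by counts it was 9.35% for the members and 17.8% for the protein-coding genes. Coding transcripts held over 50% in both libraries for 18 of the 22 and under 50% in both for 3, namely Slc38a9, Slc1a5 and Slc6a20b. Of these, Slc1a5 alone was under 50% by each measure: Slc6a20b had coding shares of 67.1% and 69.0% in the second quantification and 52.0% and 53.3% by counts. How many of all expressed protein-coding genes pass these limits, or the retained-intron limits used below, was not taken. Such counts therefore cannot be read as a trait of the members.

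Slc1a5 was the 1 member with over 50% in retained-intron transcripts in both libraries, 70.3% and 65.5%. Its leading transcript was Slc1a5-202, a retained-intron form with 2.22 and 3.15 TPM, while the coding Slc1a5-201 had 1.13 and 2.36 TPM. Slc38a9 had 49.6% and 51.4% in retained-intron transcripts and 32.3% and 29.0% in Slc38a9-203 and other processed transcripts, which have no annotated reading frame. Its coding transcript Slc38a9-201 had 7.74 and 7.85 TPM, or 18.0% and 19.6%. By counts the order was turned for Slc38a9, with 59.9% and 61.7% in coding and 19.8% and 20.2% in retained-intron transcripts. The second quantification gave coding shares of 16.4% and 17.8% for Slc38a9 and 23.5% and 17.9% for Slc1a5.

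By contrast, retained-intron transcripts held under 10% in both libraries for 3 members, Slc43a2 (4.46% and 3.55%), Slc3a2 (4.28% and 9.14%) and Slc7a5 (7.27% and 0%). In the second quantification Slc43a2 was past that limit, at 14.3% and 10.5%. For Slc6a6 they held 30.0% and 22.4% of TPM but 4.16% and 2.76% of counts, and Slc6a6-201, the full coding transcript, had 169 and 182 TPM. Slc38a1, Slc38a2 and Slc7a1 lay between, from 27.4% to 39.6%. Slc38a10 had no annotated retained-intron transcript, but processed transcripts held 47.9% and 44.7%, led by Slc38a10-207. Their share was 13.0% and 12.5% by counts, and 62.6% and 59.5% in the second quantification. Slc36a4, also without an annotated retained-intron transcript, was coding throughout, at 100% in both libraries. For Slc7a7 the methods parted, with coding shares of 97.5% and 88.7% in the transcript tables and 43.2% and 39.2% in the second quantification.

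**Figure D4:**
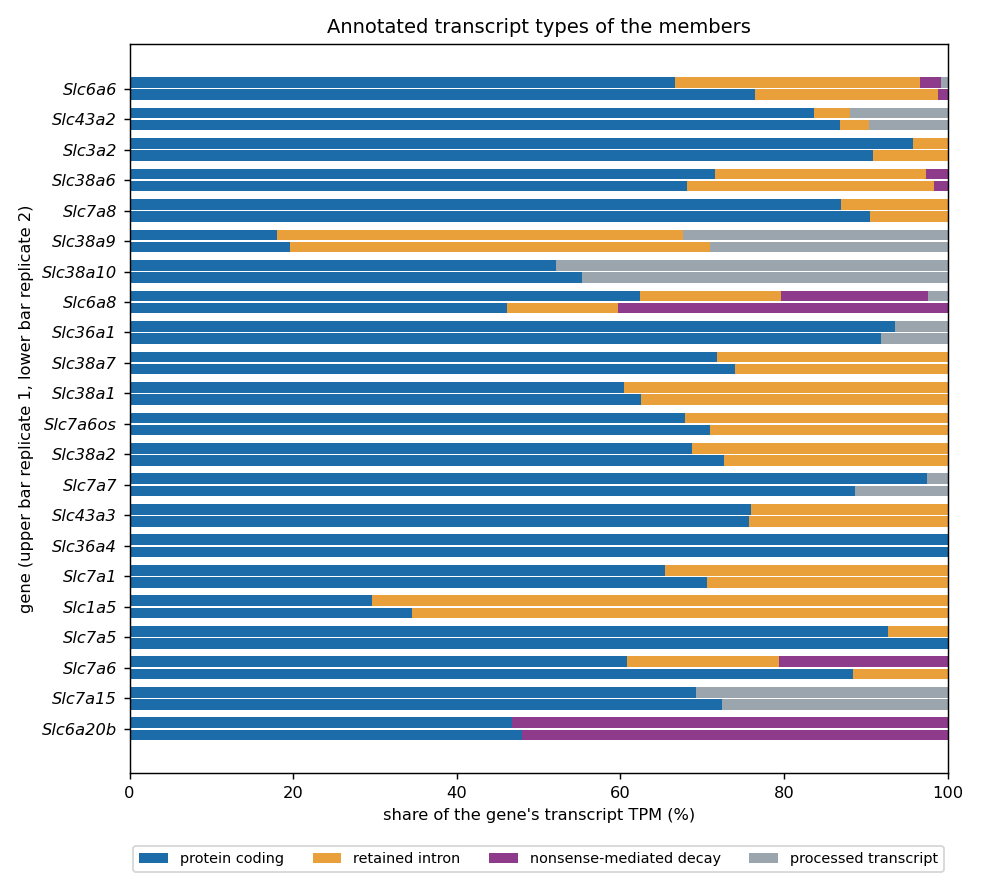
Share of each expressed member's transcript TPM in protein-coding, retained-intron, nonsense-mediated-decay and processed transcripts, with the upper bar for replicate 1 and the lower for replicate 2. Slc1a5 and Slc38a9 have the longest retained-intron parts. Slc38a10, Slc36a1, Slc7a7, Slc36a4, Slc7a15 and Slc6a20b can have none, since no such transcript is annotated for them. The nonsense-mediated-decay part of Slc6a8 is 18.0% in replicate 1 and 40.3% in replicate 2.

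Between the libraries, some single transcripts differed more than their genes. In Slc6a8 the transcript Slc6a8-202, annotated for nonsense-mediated decay, had 4.11 TPM (297 counts) in replicate 1 and 12.7 TPM (782 counts) in replicate 2. The second quantification gave 0.825 and 6.17 TPM for it, whereas the coding Slc6a8-201 had 6.77 and 5.80 TPM in the transcript tables. Slc3a2-201 went the other way, from 91.0 TPM in replicate 1 to 43.9 in replicate 2, while Slc3a2-207 stayed at 35.1 and 38.4 TPM. Slc7a7-211, a short coding form, had 3.84 TPM in replicate 1 and 0 in replicate 2, and 1.67 and 0 in the second quantification. In Slc38a1, Slc38a1-202 had 1.07 and 4.58 TPM and Slc38a1-201 had 8.98 and 6.53 TPM. These transcripts were named after their values were seen, and whether the starting amount of RNA plays a part was not tested.

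For genes as a whole, no member with a high count differed by 2-fold between the libraries. Ratios of replicate 2 over replicate 1 were taken from counts scaled between the libraries (TMM), with 95% intervals that cover counting error only. Among the 22 members with a mean count of 100 or more, 0 had an absolute log2 ratio of 1 or more, beside 1.72% of protein-coding genes with that count. These 22 take in Slc1a4 and leave out Slc7a15, unlike the expressed members. The median ratio of these members was 0.16 on the log2 scale, beside -0.01 for the protein-coding genes, whose 5th and 95th percentiles were -0.60 and 0.50. Intervals lay above 0 for 14 members, below 0 for 5 and across 0 for 3. The same shares over all protein-coding genes were not taken, so these counts cannot be read as a trait of the members.

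Slc1a4 was highest in replicate 2 relative to replicate 1, with 82 and 127 counts and a log2 ratio of 0.88 (interval 0.47 to 1.31). Next were Slc1a5 at 0.78 (0.54 to 1.01), Slc43a3 at 0.77 (0.59 to 0.96), Slc7a5 at 0.56 (0.29 to 0.84) and Slc7a1 at 0.55 (0.43 to 0.66). These 5 members lay beyond the 95th percentile of protein-coding genes. At the other end stood Slc38a10 at -0.61 (-0.70 to -0.52), Slc3a2 at -0.44 (-0.50 to -0.38) and Slc7a7 at -0.38 (-0.55 to -0.21). Of the members, 1 lay below the 5th percentile, namely Slc38a10. The heavy chain and Slc7a7 were thus lower in replicate 2, while Slc7a5, another of its partners, was higher. In the second quantification, which uses the same reads, the sign was the same for 22 of 22 members, and Slc43a3 was 0.37. All 10 macrophage markers were lower in replicate 2, with a median of -0.41. Whether the marker level or the starting amount plays a part in the members' ratios was not tested.

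**Figure D5:**
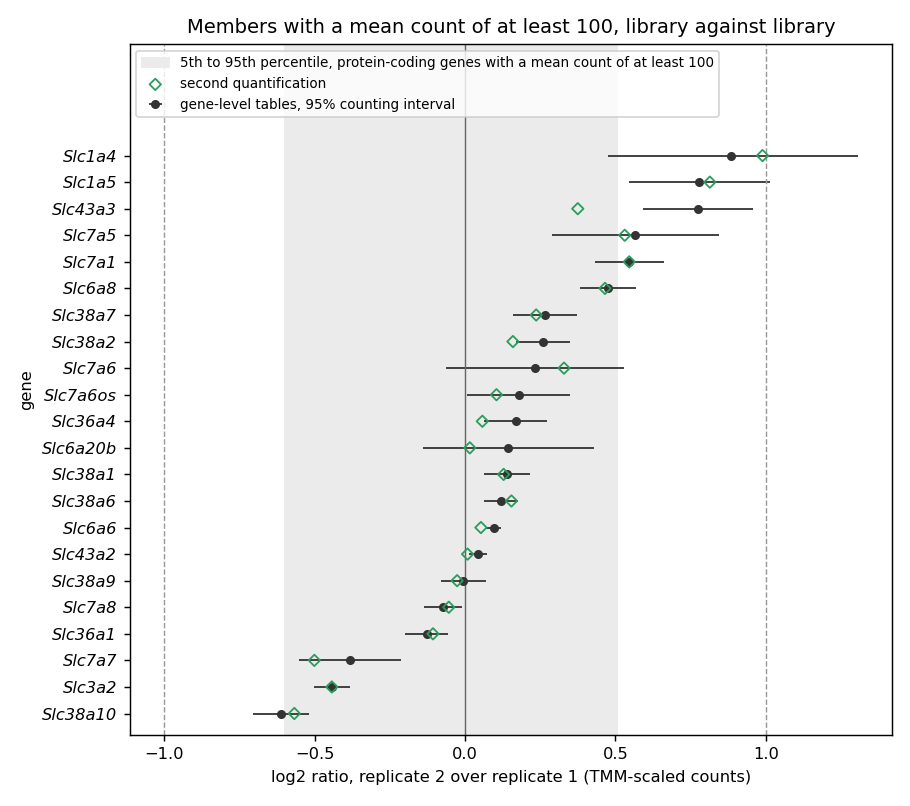
Log2 ratio of replicate 2 over replicate 1 for the 22 members with a mean count of at least 100, with points and 95% counting intervals for the gene-level tables, diamonds for the second quantification, and a grey band for the 5th to 95th percentile of protein-coding genes. All points lie between the dashed lines at -1 and 1, from Slc38a10 at -0.61 to Slc1a4 at 0.88.

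Genes that work beside these carriers were taken from lists of pathway genes. Of 34 genes of lysosomal amino acid sensing and mTORC1, 32 reached TPM 1 and 14 reached TPM 10 in both libraries, with a median of 2.93 ± 0.14 (SD, n = 2) on the log2(TPM + 0.1) scale. The highest were Fnip2, a partner of folliculin, at 166 and 144 TPM, Rragc, a GTPase that recruits mTORC1 to the lysosome, at 46.0 and 37.3 TPM, and Fnip1 at 35.97 and 35.65 TPM. The lowest by mean was Castor1, a cytosolic arginine sensor, at 0.31 and 0.18 TPM, against 42.9 and 40.1 TPM for the lysosomal arginine sensor Slc38a9. Fnip2 was thus at the level of the highest members of the transporter set, below Slc6a6 and above Slc43a2 in both libraries.

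A list of mostly lysosomal and vesicular carriers outside the chosen families fell into 2 sets, with 7 of 11 past TPM 10 in both libraries and the other 4 under TPM 1. Among the 7 is Slc16a10, an aromatic amino acid carrier of the plasma membrane, at 16.4 and 15.4 TPM. Mfsd12, which imports cysteine into lysosomes, had 158 and 89.1 TPM, and Slc15a3, a lysosomal carrier of histidine and small peptides, had 131 and 115 TPM. Slc15a4, of the same function and needed for signalling by endosomal Toll-like receptors, had 37.5 and 109.9 TPM. Its counts did not follow, at 2504 and 1412, and its TPM in the second quantification was 27.4 and 27.1, so that the gene-level TPM of replicate 2 is uncertain. Slc17a6, Slc17a7 and Slc32a1, the vesicular carriers of glutamate and of inhibitory transmitters in neurons, had no count.

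Of 14 mitochondrial amino acid carriers, 11 reached TPM 1 and 4 reached TPM 10 in both libraries. Slc25a22, a glutamate carrier, had 45.9 and 29.1 TPM, Slc25a12, the aspartate and glutamate carrier, had 19.4 and 13.5 TPM, and Slc25a40, a glutathione carrier, had 12.9 and 18.0 TPM. The lowest by mean was Slc25a2, an ornithine carrier, at 0.94 and 0.57 TPM. These 3 lists thus held a larger share of expressed genes than the 35.5% of the transporter set, at 94.1%, 63.6% and 78.6%, a description without a test, since the lists were chosen with earlier results of these data known.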

How the data were processed

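Per the deposited notes, reads aligned to the transcriptome gave the gene-level and transcript-level tables, and reads without that step gave the second quantification, all on mm10 with GENCODE mouse release 21. The deposited tables hold expected counts and TPM, and the second quantification holds estimated counts (30419009 and 32279044 in all) and TPM as the authors deposited them. The quantification programs and strand use were not given in the sources used here. Entries that name no annotated gene (26345 per library, 1.01% and 0.336% of expected counts) were kept out. Expected counts were rounded. Ratios used TMM factors from edgeR 4.0.16 in R 4.3.3 (14892 genes passed filterByExpr; prior count 0.5), and intervals are exact Clopper-Pearson 95% intervals. DESeq2 1.42.0 size factors were an alternative. No p-value was computed. Levels of lists are medians of log2(TPM + 0.1). Shared stretches are overlapping runs of 31 bases, 1 from each position of a transcript, looked for on both strands of all annotated transcripts of other genes. Reads carry no molecular identifiers that the files show, so intervals and floors cover counting error only.

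Tested on simulated data of 55536 genes, the rule for genes apart took 95% of 200 genes changed 4-fold and 1 unchanged gene. The changed genes had a mean count of at least 100, and the spread between libraries was a fixed setting, not taken from these data. The simulation thus checks that the rule works as written and gives no rate of false calls for these libraries. The rule for named genes took members at mean TPM of at least 10 with all values, those at TPM of at least 1 in both libraries, those next to that limit, those without a count, and the 3 highest and the lowest of each further list. The members and lists were chosen with earlier results of these data known. Markers of other cell types were fixed as neutrophil, B cell, T and NK cell, mast cell and basophil, erythroid and megakaryocyte, stromal, neuronal and epithelial lists. The alternatives were the second quantification, TPM rescaled to protein-coding genes, another pseudocount, other count minimums, other scalings and each library alone. Tables were made with pandas 2.3.3, numpy 2.4.6 and scipy 1.17.1 under Python 3.11.15, and figures with matplotlib 3.10.9. 1 listed gene, Slc66a1, was matched under its older symbol Pqlc2.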

Additional observations from a re-analysis of the deposited data

How the results depend on the processing

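The count of members at TPM of at least 10 in both libraries fell from 14 to 9 in the second quantification, while the count at TPM of at least 1 was 22 in both and 26 with TPM rescaled to protein-coding genes; all 9 were among the 14. The median level of the members, -2.65, was -1.36 in the second quantification, -1.69 with TPM rescaled to protein-coding genes, 0.084 with a pseudocount of 1 TPM and 3.86 over members with a count of at least 10 in both libraries; the last 3 follow from the scale, the constant and the fewer genes, and the cause of the first was not tested. With no minimum count, 11 members were apart between the libraries instead of 0, and with a mean count of at least 50 it was 0. The share of all protein-coding genes apart without a minimum was not taken, so the 11 has no comparison. The median retained-intron share, 26.1%, was 29.3% in the second quantification and 9.35% as a share of counts, an alternative chosen after seeing the data. With 1 library alone, the count at TPM of at least 1 was 22 to 23, that at TPM of at least 10 was 14 to 16, the median level -2.74 to -2.56 and the retained-intron share 25.1% to 27.0%. Of 14 named levels, 12 were lower in the second quantification and 2 higher. Under other scalings of the counts (DESeq2 size factors, library totals), 0 members were apart and the median log2 ratio over members past filterByExpr was 0.17 to 0.22. The design of 1 group of 2 libraries allows no test, and members with few counts have wide counting intervals.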
